A study of Mus musculus with 12 samples.

Results

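The genes described here had a much lower level, and often few or no counts, in resting mouse macrophages than in M1-like macrophages, after the names most often used for that state were set aside. A gene was chosen when its mean level over 6 M1 libraries was at least 20 CPM (counts per 1000000 counts of the library) and its mean over 6 M0 libraries was at most 1/8 of that. Of 24552 gene symbols, 178 met both values. Symbols of predicted genes, microRNAs, clone names and opposite-strand transcripts were then dropped by name. So were the well-known interferon GTPase, STAT, IRF, chemokine and chemokine receptor, interleukin 1, Toll-like receptor and major histocompatibility symbols. Also dropped were Oas, Mx and Ifi symbols, Rsad2, Cmpk2, Isg15, Usp18, Nos2, Acod1, Ptgs2, Ass1, Xcr1, Art3, Phrf1 and AV051173. This removed 51 and left 127 genes, so the absence of such a name below is not a result. The levels in M1 and M0 chose the members, so members were selected on them and they are given below as a description with no test.

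The study measured RNA from bone marrow-derived macrophages of the mouse, grown from marrow cells for 6 days in 10 ng/ml M-CSF, with and without ISRIB, a small molecule that blocks the integrated stress response by acting on the initiation factor eIF2B. The 4 groups, each of 3 biological replicates, were vehicle (DMSO) M0, ISRIB M0, vehicle M1 and ISRIB M1. ISRIB was used at 50 nM and added 1 h before the stimulus, and M1-like cells received LPS at 10 ng/ml with IFN-γ at 25 ng/ml for 16 h in its presence or with vehicle. Strain, sex, age and what the M0 cells received during the stimulation were not given in the sources used here, nor whether replicates came from separate animals, so that the tests measure the spread between these samples.

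LPS, a lipid of the bacterial outer membrane, is sensed by Toll-like receptor 4 and activates NF-κB and interferon regulatory factors. IFN-γ acts through JAK kinases, and promoters of its target genes often carry GAS elements. Both stimuli together give the classically activated macrophage, known for antigen presentation, production of reactive oxygen and nitrogen species, a shift towards glycolysis and the secretion of inflammatory proteins.

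The libraries were shallow, with 439976 to 514037 counts each, so that 1 count was worth 1.95 to 2.27 CPM. For levels in CPM the value after ± is the SD between libraries, and for log2 fold changes the SE of the test. Both take in the spread between samples as well as counting error. The floor of 3 counts per library covers counting error only. Among the macrophage markers Lyz2 had the most counts, 38 to 334 per library, with 2 to 26 for Cd68 and 0 to 8 for C1qa. Mrc1 had no count in M1. Lyz2 had 146 to 334 counts in M0 and 38 to 106 in M1, and Csf1r 35 to 71 and 8 to 31. The other way, Adgre1 had 4 to 26 in M0 and 6 to 66 in M1, and Itgam 4 to 18 and 17 to 49. The markers thus did not all move the same way, and their sum leans on Lyz2. All 12 macrophage marker genes had counts in at least 1 library, with 145 to 522 summed counts per library, a small share of each. The 11 of them that are not members summed to 882 ± 209 CPM in vehicle M0 and 393 ± 107 in vehicle M1, and to 722 ± 147 in ISRIB M0 and 553 ± 79.2 in ISRIB M1 (SD, n = 3), a lower mean in M1, with vehicle ranges that did not overlap and ISRIB ranges that did. The part of this in the members' values was not tested. The 6 NK cell and 6 stromal markers were at 0 in every library, as were 5 of 6 T cell, 4 of 8 neutrophil, 4 of 6 mast cell, 4 of 5 red cell, 3 of 5 B cell and 3 of 7 dendritic cell markers. Dendritic cell markers, chiefly Clec9a, held 10 to 47 counts in an M0 library and 0 to 4 in an M1 library. Fewer cells of a type and less RNA per cell cannot be told apart in these bulk samples. The library kit marks strand, but the strand setting of the counting is not given in the sources used here, so reads of a gene and of a partner on the opposite strand cannot be told apart, and a level may hold reads of the unintended strand.

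Across the 127 genes the median level was 46.3 CPM in M1, with a range from 20.4 to 8558, against 2.41 CPM in M0, with a range from 0 to 743. In M1, 4 genes were at 1000 CPM or more (Oraov1, Sp110, Unc5a and Ghdc), 22 lay between 100 and 1000 CPM, and 101 lay under 100 CPM, of which 71 were under 50 CPM. Together they took 2.45% of the counts in M1 and 0.151% in M0. Oraov1 alone gave 34.9% of their summed M1 level and the top 5 genes gave 55.0%. In M0, 20 genes had no count in any of the 6 libraries, led in M1 by Med7, Tnfrsf8, Rnf219, Zdhhc6 and Fgl2. A further 15 had 1 to 3 counts over the 6 M0 libraries, and 92 had more. All 6 M1 libraries lay above all 6 M0 libraries for 109 of the 127 genes, where the same held for 15.7% of the 2356 genes tested in the series; the rule used this contrast, so nothing is read from the difference. The 18 genes whose libraries overlapped included Bst2, Cd52, Cdkn1a, Fcgr1, Slamf7 and Sp100, and none of the 18 had more than 56 counts in a library.

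**Figure D1:**
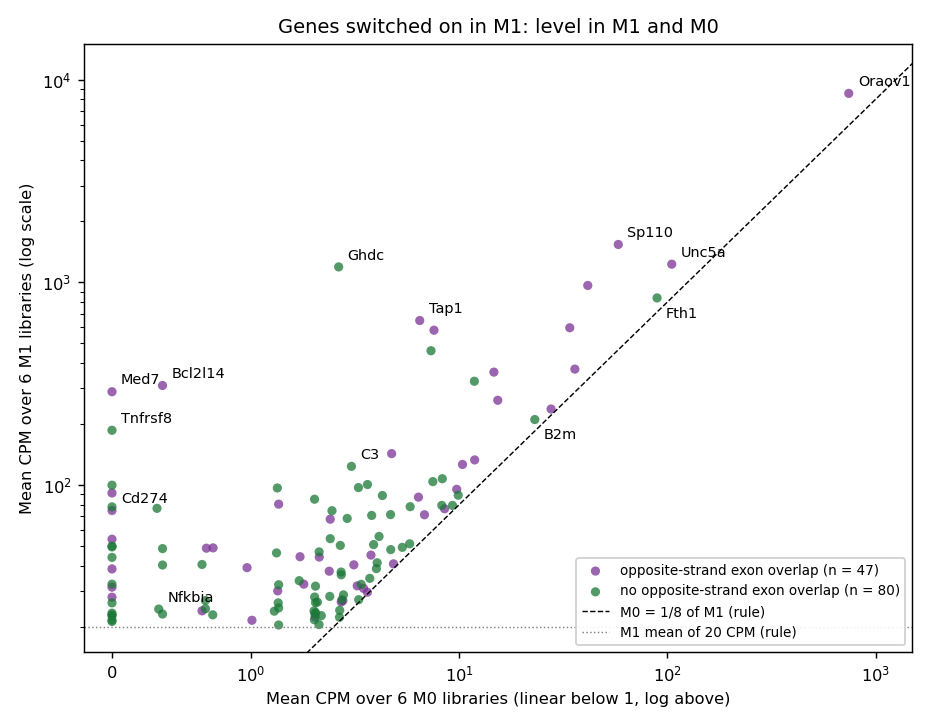
Mean CPM over 6 M1 libraries (log axis) against mean CPM over 6 M0 libraries (linear below 1, log above) for the 127 genes, with 1 point per gene, coloured by opposite-strand exon overlap. Oraov1 stands far to the upper right at 8558 and 743 CPM, Ghdc combines 1192 CPM in M1 with 2.64 in M0, and 20 genes sit at 0 on the M0 axis.

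Members just inside the level threshold were Parp12 at 20.4 CPM, Psma7 at 20.5 and Tspan3 at 21.3, and the nearest genes outside were Dnajb11 at 19.9, Eml2 at 19.8 and Taf15 at 19.7 CPM. At the other threshold, M0 was 12.2% of M1 for Hspbap1, 12.1% for Sp100 and 11.95% for Rilpl2. It was 12.6% for Prkch, 12.7% for Ehd1 and 12.8% for Prdx5, which were left out. With 55 to 129 M1 counts behind all of these but Prdx5, which had 218, either side of each threshold differed by a few counts.

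All 127 genes matched the GENCODE annotation of mouse build GRCm38, 3 of them by an older symbol. They lay on 20 chromosomes, and 126 were protein coding, with AW112010, a long noncoding RNA, as the exception. In 47 genes (37.0%) an exon was overlapped by an exon from the other strand, and these 47 held 72.6% of the members' M1 counts. Over all symbols the share of M1 counts in such genes was 92.1%, and over tested genes that are not members 94.3%. Such overlap was found for 24.2% of 24178 matched symbols, and for 68.8% of the 2199 tested genes that are not members. Among the 20 members with the most counts it was found for 14, and among the other 107 for 33. Per kilobase of exon, the median M1 level was 15.1 CPM with overlap and 11.1 CPM without, over ranges of 2.87 to 1212 and 1.31 to 443 CPM. Of the 80 without exon overlap, 7 had an exon inside an intron of an opposite-strand gene, 33 had an opposite-strand gene within 5000 bases and 40 had neither. Whether counts of these 47 genes belong to the gene or to its partner, and whether reads were counted on the intended strand, was not tested.

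Oraov1 (LTO1, required for ribosome biogenesis) had the highest level per exon length, 1212 CPM per kilobase. It lies at chr7:144915100-144931701 on the plus strand and overlaps the cyclin D1 gene Ccnd1 on the opposite strand by 1100 exon bases. Its counts were 447, 283 and 241 in vehicle M0, 511, 312 and 368 in ISRIB M0, 3720, 4066 and 3852 in vehicle M1, with 4497, 3736 and 4142 in ISRIB M1. The lowest M1 library was thus far above the highest M0 library, and means were 8558 ± 769 CPM in M1 and 743 ± 220.2 in M0 (SD, n = 6), an 11.5-fold difference. Ccnd1 itself went from 269 to 373 CPM between M0 and M1 on the same scale.

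Skiv2l2 (Mtrex), the RNA helicase that feeds substrates to the nuclear exosome, had 0 to 8 counts in M0 and 250 to 310 in M1, a 76.7-fold difference in mean CPM. Its partner Plpp1, with a 452-base exon overlap, was at 186 CPM in M0 and 174 in M1. Tra2a, a splicing regulator, Riok3, a kinase of ribosome maturation, and Eif6, which keeps ribosomal subunits apart, lay between 26.5 and 31.7 CPM in M1.

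Tap1, the peptide transporter that loads major histocompatibility class I molecules, led the 5 genes of antigen presentation. It lies at chr17:34187553-34197225 and had 0, 3 and 1 counts in vehicle M0, 1, 6 and 8 in ISRIB M0, 335, 294 and 300 in vehicle M1, with 307, 321 and 264 in ISRIB M1. The groups of M0 and M1 were widely separated, at 6.47 ± 6.45 and 648 ± 53.2 CPM (SD, n = 6). Its exons overlap those of Psmb9 on the opposite strand by 212 bases, and reads of both cannot be told apart. B2m, the light chain of class I molecules, had 14, 10 and 0 counts in vehicle M0, 12, 10 and 22 in ISRIB M0, 101, 72 and 96 in vehicle M1, with 98, 150 and 78 in ISRIB M1. Its M1 libraries again all lay above its M0 libraries, 9.12-fold in mean CPM, and per kilobase of exon it stood at 245 CPM in M1 beside 118 for Tap1. Ctsc, the protease cathepsin C that activates granule proteases, averaged 104 CPM in M1 and 7.48 in M0. Cd74, the class II invariant chain, had 5 to 28 counts in M1 and a single count in M0, and Psma7, a proteasome core subunit, had 2 to 24 and 0 to 4.

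The 16 interferon-induced and nucleic acid defence genes ranged from 20.4 to 1538 CPM in M1, with a median of 26.7. Sp110, a nuclear body protein, had 23, 24 and 33 counts in vehicle M0, 36, 36 and 16 in ISRIB M0, 808, 635 and 643 in vehicle M1, with 836, 638 and 760 in ISRIB M1. It was the only gene of the 16 above 100 CPM, after the removal by name, and its M1 mean was 26.5 times its M0 mean. An exon of G530012D18Rik overlaps it by 392 bases on the other strand. The rest rested on few reads. Znfx1, an antiviral RNA helicase, had 19 to 51 counts in M1, and Herc6, the mouse ISG15 ligase, 8 to 26. Trim30a, a TRIM family protein that restrains inflammatory signalling, had 6 to 16. Slfn2, a Schlafen protein, had 4 to 26, Bst2 (tetherin), which holds budding virions at the cell surface, had 4 to 18, and Sp100, another nuclear body protein, had 2 to 19. Parp12, an antiviral ADP-ribosyltransferase, had 4 to 23 and was too low to be tested, as was the helicase Helz2. Ms4a4c, a membrane protein, had 6 to 22 counts in M1 and 10 in 1 M0 library. Serpina3g, a serine protease inhibitor, had 5 to 22 in M1 and 0 in M0, which is at least 3.70-fold over a floor of 3 counts per library. Slfn2, Trim30a, Serpina3g and the Ms4a genes belong to families of near-identical copies, so their reads may be split among relatives.

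Promoter sequence is shown for 5 members of the interferon and NF-κB arms. Each window shown held a match to a motif of those arms and no annotated exon. The 5 were picked after the matches were known. Not every such member is shown, and AW112010, with an NF-κB match, was left out. Another window of Trim30a, also without annotated exon, held no match. RefSeq windows of GRCm38.p6, the 250 bases before a transcript start, were matched for 100 of the 127 genes. Searched on both strands were the GAS motif TTCNNNGAA, the interferon regulatory factor motif GAAANNGAA and the NF-κB motif GGANNTTCC. Each line reads 5′ to 3′ in the sense of the gene, with matches in capitals. The window of Bst2 holds a GAS match that overlaps a first interferon regulatory factor match, which itself overlaps a second. In Nfkbia both NF-κB matches flank a match to the interferon motif on the reverse strand. Fcgr1 and Serpina3g hold the same 9 letters as their GAS match.
Bst2, chr8:71537473-71537722, minus strand: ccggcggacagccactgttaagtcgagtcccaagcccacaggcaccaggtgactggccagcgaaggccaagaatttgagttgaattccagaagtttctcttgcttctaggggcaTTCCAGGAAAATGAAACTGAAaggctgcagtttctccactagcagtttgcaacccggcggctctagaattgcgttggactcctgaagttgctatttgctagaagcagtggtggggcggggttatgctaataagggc
Fcgr1, chr3:96293970-96294219, minus strand: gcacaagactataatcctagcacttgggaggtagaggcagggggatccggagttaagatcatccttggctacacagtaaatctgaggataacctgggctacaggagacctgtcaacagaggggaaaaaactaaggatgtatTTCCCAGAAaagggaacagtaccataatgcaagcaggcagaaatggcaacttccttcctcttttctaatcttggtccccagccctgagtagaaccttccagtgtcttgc
Serpina3g, chr12:104235897-104236146, plus strand: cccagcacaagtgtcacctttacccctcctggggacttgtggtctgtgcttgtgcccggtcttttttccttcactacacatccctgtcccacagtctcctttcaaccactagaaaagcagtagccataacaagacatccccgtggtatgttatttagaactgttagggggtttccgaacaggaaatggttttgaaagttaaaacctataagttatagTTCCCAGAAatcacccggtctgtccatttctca
Trim30a, chr7:104465194-104465443, minus strand: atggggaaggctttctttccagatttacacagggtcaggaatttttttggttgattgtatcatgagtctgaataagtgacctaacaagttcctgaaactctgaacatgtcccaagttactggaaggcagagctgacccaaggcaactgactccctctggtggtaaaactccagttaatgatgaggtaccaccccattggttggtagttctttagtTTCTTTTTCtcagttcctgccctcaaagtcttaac
Nfkbia, chr12:55492648-55492897, minus strand: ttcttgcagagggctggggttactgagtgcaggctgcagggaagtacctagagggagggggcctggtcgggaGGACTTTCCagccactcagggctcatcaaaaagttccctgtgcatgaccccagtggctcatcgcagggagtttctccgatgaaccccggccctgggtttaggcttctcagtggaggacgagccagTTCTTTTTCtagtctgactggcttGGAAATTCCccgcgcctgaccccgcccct

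GAS matches were slightly less frequent among the members than among all genes, and the other motifs more frequent. Beside tested genes, the GAS and NF-κB shares of the members were close. None of these differences was tested. A GAS match was found in 7 of 100 members (7.0%) against 8.13% of all 27025 genes with a window and 6.78% of tested genes. An NF-κB match was found in 6 (6.0%) against 4.12% of all genes and 5.40% of tested genes. The interferon motif was found in 14 (14%) against 8.18% of all genes and 8.60% of tested genes. No match to any of the 3 was found in the windows of 77 members. A match describes these letters only and is neither a binding site nor a cause.

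Among 18 surface receptors and ligands, Unc5a, a netrin receptor known from axon guidance, was highest with 44 to 64 counts in vehicle M0, 42 to 59 in ISRIB M0, 534, 655 and 633 in vehicle M1, with 554, 588 and 482 in ISRIB M1. Its exons overlap those of Hk3, a hexokinase of myeloid cells and a member too, by 34 bases, and Hk3 had 17 to 30 counts in M1 and 2 in all of M0. Apobr, a receptor for apolipoprotein B48, stood at 597 ± 103 CPM in M1 and 34 ± 15.6 in M0 (SD, n = 6). Its opposite-strand partner Cln3, with 442 exon bases shared, went the other way, from 3372 CPM in M0 to 1395 in M1.

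Tnfrsf8 (CD30), a receptor of the tumour necrosis factor family, had no count in M0 and 87, 61 and 87 in vehicle M1, with 100, 78 and 112 in ISRIB M1, at least 30.1-fold over the floor. It has no opposite-strand exon overlap and was among the clearest on and off patterns of the set. Cd274 (PD-L1), the ligand of the T cell checkpoint receptor PD-1, also had no count in M0 and 26, 11 and 57 in vehicle M1, with 34, 34 and 50 in ISRIB M1. Marco, a scavenger receptor for bacteria, had 0 to 4 counts in M0 and 20 to 68 in M1. Pirb, an inhibitory receptor with close paralogs, had 2 to 10 and 21 to 74. Cd38, an ectoenzyme that consumes NAD, averaged 46.3 CPM in M1 and 1.33 in M0. Tnfsf9 (the ligand of 4-1BB) averaged 40.4 and 3.12, Clec4e (Mincle, a receptor for mycobacterial glycolipid) 32.2 and 1.36, and Slamf7, a phagocytosis receptor, 31 and 3.48 CPM. The high-affinity IgG receptor Fcgr1 had 18, 6 and 56 counts in vehicle M1, with 3, 16 and 10 in ISRIB M1, so that 1 library held 56 of its 109 M1 counts.

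Of 8 secreted proteins, the complement component C3 was highest, with 0 to 5 counts in M0, 94, 38 and 43 in vehicle M1, with 61, 72 and 41 in ISRIB M1. Fgl2, a prothrombinase of activated macrophages, had none in M0, 40, 16 and 44 in vehicle M1, with 4, 58 and 60 in ISRIB M1. Saa3, an acute-phase protein with close paralogs, had none in M0 and 12 to 38 in M1. These M1 libraries thus varied several-fold within a group while M0 stayed at or near 0. Il7, a lymphocyte growth factor, Lgals9 (galectin 9), Ctgf (Ccn2), Srgn (serglycin) and Vgf, a neuropeptide precursor, lay between 24.1 and 76.8 CPM in M1.

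The 7 genes of inflammatory signalling and cell death were led by Bcl2l14, a BCL2 family member, with a single count over the 6 M0 libraries. Its counts were 190, 166 and 157 in vehicle M1, with 130, 128 and 96 in ISRIB M1. Casp1, the inflammasome protease, had 10 to 27 counts in M1, and Cflar (c-FLIP), an inhibitor of caspase 8, had 12 to 30. Nfkbia (IκBα), the inhibitor that NF-κB itself induces, had 6, 6 and 24 counts in vehicle M1, with 10, 13 and 10 in ISRIB M1 and a single count in M0. Xkr8, a lipid scramblase, N4bp1, a suppressor of NF-κB signalling, and Cdkn1a (p21) completed the group at 26.9 to 54.4 CPM in M1.

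Fth1, the ferritin heavy chain that stores iron, led 7 genes of oxidative stress and metals with 838 ± 261 CPM in M1 and 89.2 ± 29.1 in M0 (SD, n = 6). Its counts were 367, 246 and 456 in vehicle M1, with 262, 608 and 435 in ISRIB M1, against 23 to 68 in M0, and reads of its pseudogenes may be among them. Sod2, the mitochondrial superoxide dismutase, had 0 to 6 counts in M0 and 18 to 71 in M1. Hmox1, which degrades haem, had 0 to 8 and 16 to 60. The M1 and M0 libraries did not overlap for these 3 genes. Gss, of glutathione synthesis, Srxn1 (sulfiredoxin), and Keap1, the inhibitor of the antioxidant factor NRF2, lay between 22.7 and 80.5 CPM in M1. Slc11a1 (NRAMP1), a phagosomal metal transporter, averaged 23.2 CPM in M1 with overlapping M0 libraries.

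The 9 genes of metabolism and transport were all below 80 CPM in M1. The glycolytic enzymes Aldoa and Pgk1 averaged 76.4 and 32.4 CPM in M1 and 8.52 and 3.39 in M0. Hk3 averaged 49.0 CPM in M1 and 0.728 in M0. Nampt, which recycles nicotinamide to NAD, had 36, 22 and 37 counts in vehicle M1, with 13, 17 and 16 in ISRIB M1, which did not overlap. Its difference with ISRIB in M1 did not pass (log2 fold change -1.12 ± 0.68, SE, edgeR adjusted p = 0.900, Benjamini-Hochberg). Of all tested genes, 6.03% had all 3 ISRIB M1 libraries below all 3 vehicle M1 libraries. Slc7a2, the arginine transporter CAT2, averaged 39.2 CPM in M1 and 0.973 in M0. Acsl1, which activates long-chain fatty acids, had 4 to 32 counts in M1 and 4 in 1 M0 library.

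Several of the best-counted members are not known chiefly for inflammation, and their neighbours are given beside them. Ghdc, a little-studied protein, at chr11:100766032-100770957, had 4, 2 and 0 counts in vehicle M0 and 0, 2 and 0 in ISRIB M0. In M1 it had 528, 480 and 595 with vehicle and 549, 554 and 647 with ISRIB, a 451-fold difference in mean CPM. No gene on the opposite strand overlapped it or lay within 5000 bases. Zfp276, a zinc finger protein, stood at 966 ± 166 CPM in M1 and 41.5 ± 20.8 in M0, and shares 920 exon bases with the DNA repair gene Fanca, which was at 1145 and 625 CPM. Nelfe, a subunit of the factor that pauses RNA polymerase II, had 0 to 6 counts in M0 and 180 to 259 in M1. It lies at chr17:34850391-34856372, 2 bases from the complement factor B gene Cfb on the opposite strand. Cfb had 100 to 141 counts in vehicle M1 and 134 to 167 in vehicle M0, and did not pass the test (log2 fold change 0.06 ± 0.18, SE; adjusted p = 0.813, edgeR with Benjamini-Hochberg adjustment). So the pair differed in these counts, with Nelfe 62.8-fold higher in M1 over vehicle and ISRIB libraries together. Cfb was at 311 CPM in vehicle M0 and 263 in vehicle M1, and at 308 in ISRIB M0 and 295 in ISRIB M1.

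Med7, a Mediator subunit, had no count in M0 and 125, 127 and 141 in vehicle M1, with 131, 144 and 144 in ISRIB M1, at least 46.7-fold over the floor. A 609-base exon overlap with 2310031A07Rik lies on the other strand. Klf3, a transcriptional repressor, averaged 373 CPM in M1 and 36 in M0, and Kdm7a, a histone demethylase, 361 and 14.7. Klf3 shares 404 exon bases with Gm20033, and Kdm7a 287 with 4930599N23Rik. Fyco1, which links autophagosomes to kinesin, averaged 325 and 11.8 CPM without exon overlap. Ccdc85b, a coiled-coil protein that shares 1163 exon bases with Fosl1, averaged 262 and 15.3. Trim43c, a ubiquitin ligase family member with near-identical copies, averaged 237 and 27.7, and overlaps 9330159M07Rik by 768 bases. Peak1, a pseudokinase of the cytoskeleton, averaged 143 and 4.74, and overlaps Peak1os by 57 bases. Rnf219, a regulator of mRNA deadenylation, had no count in M0 and 38 to 56 in M1, and Zdhhc6, a palmitoyltransferase, had none in M0 and 30 to 66 in M1. Zdhhc6 overlaps Acsl5 by 404 exon bases, and Acsl5 had 92 counts in M0 and 92 in M1.

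For 25 of the 47 genes with exon overlap, the partner with the longest overlap was itself in the count table. Of these partners 12 were higher in M1, 8 were lower and 5 had no count, and 10 had over 1000 counts. Even counts were more frequent than odd ones, at 58.1% of the nonzero values of members with overlap and 68.4% of those without, beside 61.3% over all genes; the way reads of a pair were counted is not given in the sources used here.

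**Figure D2:**
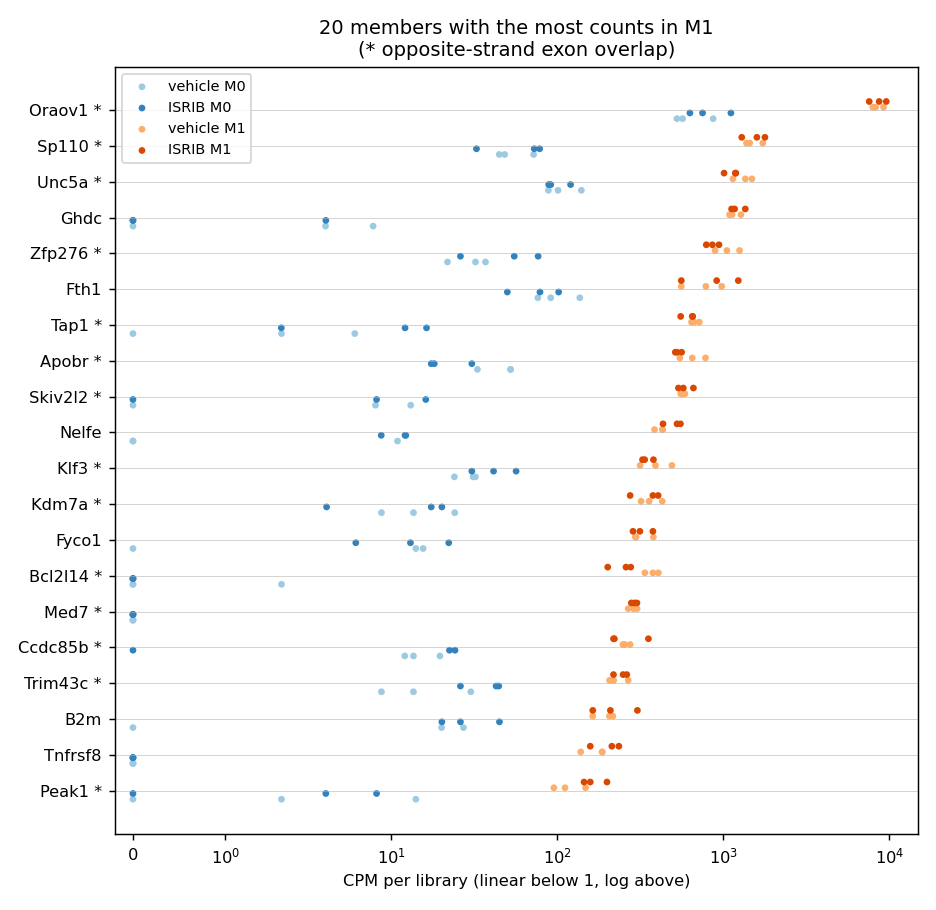
CPM in each of the 12 libraries (linear below 1, log above) for the 20 members with the most M1 counts, with 1 point per library coloured by group and an asterisk where an exon overlaps an opposite-strand gene. Orange M1 points lie right of blue M0 points in every row, from 8558 CPM for Oraov1 to 143 for Peak1. Vehicle and ISRIB points lie close together in M1 and are spread more widely in M0 for some genes, among them Tap1 and Apobr.

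Further groups are given here by their M1 levels. The 7 mitochondrial genes ranged from 21.7 CPM (Tefm, a transcription elongation factor) to 74.8 (Sco1, a copper chaperone of cytochrome oxidase) in M1. The 15 genes of vesicles, cytoskeleton and membranes had a median of 79.4 CPM, and the 6 ubiquitin ligases one of 94.4. Both DNA replication and repair genes, Pola2 and Xrcc2, averaged 50.9 and 48.1 CPM.

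Genes of 6 related lists that are not members were tested for M1 against M0, as a setting for the members. The lists hold 165 genes, of which 27 are members, and 31 of the others were high enough to test. In vehicle cells 19 of the 31 rose and 0 fell, beside 24.3% of all 2356 tested genes that rose and 20.5% that fell (edgeR quasi-likelihood test with Benjamini-Hochberg adjustment over all genes). Under ISRIB 18 rose and 0 fell, beside 23.9% and 20.9%; 1 gene fell under 10 of the alternatives, limma-voom among them (Trex1 or Rela), and in vehicle 1 fell (Parp10) with no filter on low counts. These genes are what the rule left of the lists, and 4 of them (Cd40, Il1rn, Psme2 and Socs3) had at most 3 M0 counts and reached the test through M1. Il1rn met both values of the rule and was set aside by name only. The other 27 held 15 that rose in vehicle and 14 under ISRIB, and since the same contrast sorted the lists, the counts are a description. Whether the response of these genes differed with ISRIB was not read from the counts of calls.

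Of 11 tested genes of the list of ADP-ribosylation, ubiquitin and nucleic acid sensing, 8 rose in vehicle and 7 under ISRIB. Parp9, an ADP-ribosyltransferase, had 228, 254 and 256 counts in vehicle M0 and 1159, 977 and 1160 in vehicle M1. Its partner Dtx3l, a ubiquitin ligase, had 23, 29 and 33 and then 228, 173 and 191, a log2 fold change of 3.19 ± 0.24 (SE). Both share 458 exon bases on opposite strands. The kinase Eif2ak2 (PKR) rose by 1.91 ± 0.39 and Samhd1, a nucleotide hydrolase, by 3.35 ± 0.57 on the log2 scale. For all 4 the edgeR adjusted p, by Benjamini-Hochberg, was 0.000224 or lower in vehicle.

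Of 4 tested genes of the immunoproteasome and peptide loading, 3 rose in vehicle and 2 under ISRIB. Psmb9, an immunoproteasome subunit whose exons overlap those of Tap1 by 212 bases on the opposite strand, rose by 1.45 ± 0.51, and the proteasome activator Psme1 by 2.28 ± 0.59 on the log2 scale in vehicle. Psme2, its partner, rose from no count in M0 to 1, 8 and 12 in vehicle M1. Tapbp (tapasin) had 72 to 106 counts in vehicle M1 and 52 to 98 in vehicle M0 and did not pass.

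Of 5 cytokine signalling inhibitors, 3 passed as higher in vehicle and 2 under ISRIB, in both cases with Il1rn and Socs3, which had 2 and 0 M0 counts in all. Il1rn, the interleukin 1 receptor antagonist, had 0 counts in vehicle M0 and 31, 6 and 17 in vehicle M1. Dusp1, a phosphatase of MAP kinases, went from 11.0 ± 3.79 to 45.2 ± 25.8 CPM in vehicle (SD, n = 3). Il18bp, which binds interleukin 18, went from 25.2 to 11.8 CPM and Dusp2, a relative of Dusp1, from 18.6 to 10.8 CPM without passing. Both tested genes of the NF-κB list, Nfkb2 (p100) and the LPS co-receptor Cd14, rose in vehicle, and 1 of them, Cd14, under ISRIB. Of 6 genes of immune metabolism and secreted defence, 2 rose in vehicle and 3 under ISRIB. Among them Cybb, the catalytic subunit of the phagocyte oxidase, rose by 1.36 ± 0.35 in vehicle and 1.83 ± 0.34 under ISRIB and Ldha (lactate dehydrogenase) by 3.30 ± 1.13 and 2.87 ± 1.06 on the log2 scale, while Cp (ceruloplasmin) averaged 501 CPM in M0 and 494 in M1 in vehicle and did not pass. Of 3 genes of costimulation and surface, Cd40 rose in vehicle, and Cd40, the scavenger receptor Msr1 and the adhesion molecule Icam1 under ISRIB.

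ISRIB against vehicle is a comparison the choice of members did not use. The summed level of the 127 genes was 24527 ± 560.0 CPM in vehicle M1, with 24486 ± 785 in ISRIB M1, and 1396 ± 207 in vehicle M0 and 1629 ± 138 in ISRIB M0 (SD, n = 3). The groups overlapped in M1, with 24075 to 25154 CPM in vehicle and 23777 to 25330 under ISRIB, and in M0. For the 80 genes without exon overlap the M1 sums were 6493 ± 821 and 6887 ± 527 CPM. Vehicle M1 replicate 2 had the lowest sum of these 80 (5628 CPM) and also the lowest sum of the 11 macrophage markers that are not members (316 CPM, beside 347 to 631 in the other M1 libraries); the part of this in the members' values was not tested.

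**Figure D3:**
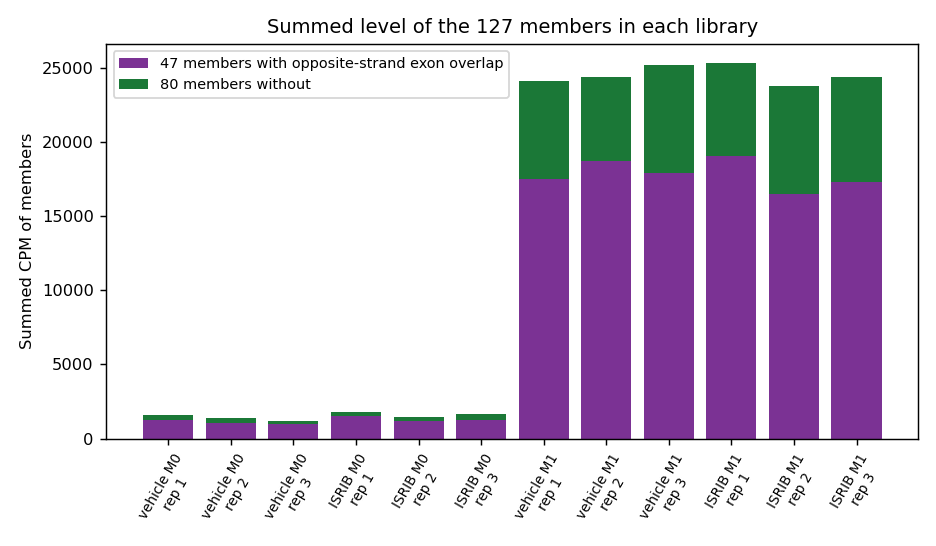
Summed CPM of the 127 genes in each of the 12 libraries, as bars from 0 split into the 47 genes with opposite-strand exon overlap and the 80 without. The M1 libraries reach 23777 to 25330 CPM with vehicle and ISRIB intermixed, and M0 libraries stay between 1186 and 1759.

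Of the 127 genes, 123 were high enough to test; Cd74, Helz2, Parp12 and Psma7 were not. In M1, 0 of 123 passed for ISRIB against vehicle by edgeR with Benjamini-Hochberg adjustment, beside 0% of all tested genes, and 0 passed by the DESeq2 Wald test or limma-voom. At an unadjusted p under 0.05 edgeR found 1 of 123, beside 5.69% of all tested genes. DESeq2 found 1, beside 5.86%, and limma-voom found 7, beside 5.05%. The median log2 difference was 0.05 over the members and -0.00 over all tested genes, with 69 higher and 54 lower, and single genes ranged from -1.53 to 1.42. With all 3 ISRIB libraries above all 3 vehicle libraries there were 4 genes, and below there were 9, where 5.56% and 6.03% of all tested genes did so.

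The gene past the unadjusted threshold was Bcl2l14, whose 3 ISRIB M1 libraries lay below the 3 vehicle libraries given above, with a log2 fold change of -0.61 ± 0.24 (SE; edgeR adjusted p = 0.806, Benjamini-Hochberg; lowest over the alternatives 0.704). The next were Xkr8 with 30, 38 and 25 counts in vehicle and 5, 15 and 22 under ISRIB, Fcgr1, Apobr and Zfp276, with log2 fold changes of -1.24 ± 0.65, -1.53 ± 0.88, -0.32 ± 0.18 and -0.31 ± 0.18. For Fcgr1 the value was -0.44 without vehicle M1 replicate 3, which held 56 of its counts. For the best-counted genes the errors were small, with Oraov1 at 0.01 ± 0.17, Sp110 at 0.03 ± 0.17, Ghdc at 0.05 ± 0.17, Unc5a at -0.24 ± 0.15 and Tap1 at -0.14 ± 0.20 (SE). Over all tested members the median SE was 0.66, so that small differences were not detectable for most of them.

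**Figure D4:**
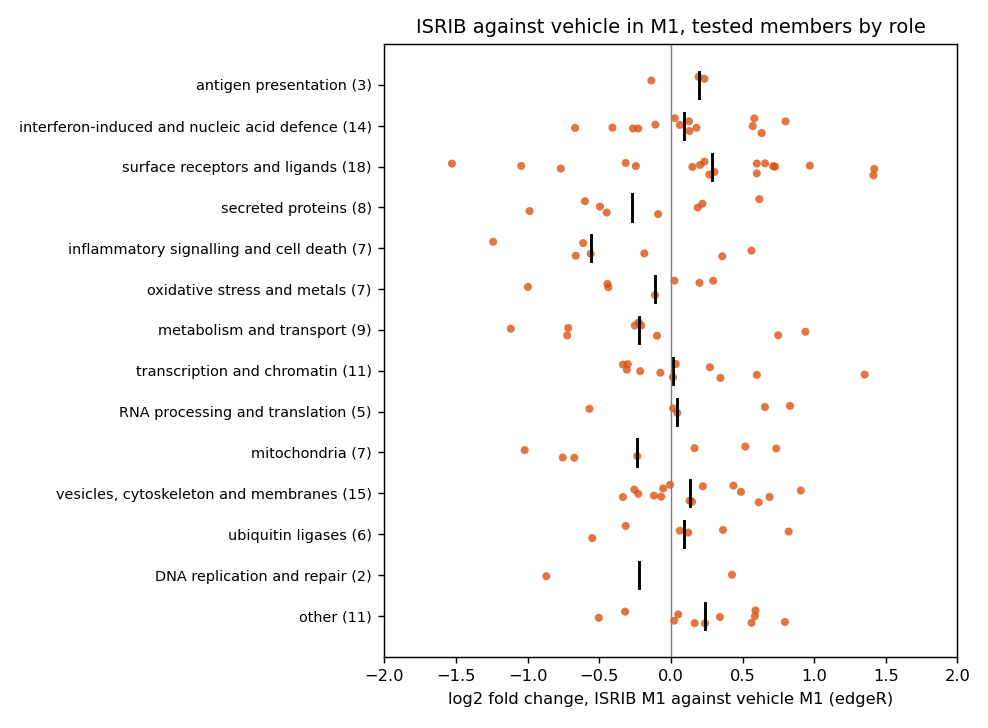
log2 fold change of ISRIB M1 against vehicle M1 (edgeR) for the 123 tested members, with 1 point per gene in rows by role and a black bar at the row's median. Points scatter on both sides of 0 in every row, between -1.53 and 1.42, and 0 genes passed the adjusted test.

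In M0 most members had few counts, and 0 of 123 passed for ISRIB against vehicle by edgeR with Benjamini-Hochberg adjustment, beside 0% of all tested genes. Most of the 123 reached this test through their M1 counts: with the M0 groups alone in the fit 9 were high enough to test, and 0 of them had an unadjusted p under 0.05, beside 5.39% of all genes tested there. With all groups in the fit an unadjusted p under 0.05 was found for 26 of 123 by edgeR, beside 6.07% of all tested genes, for 25 by the DESeq2 Wald test, beside 6.15%, and for 5 by limma-voom, beside 6.62%. With a minimum mean of 50 counts edgeR found 5 of 18, beside 6.94% of all genes tested there. The shares differed between tools and filters, and most members had few M0 counts, so nothing is read from them. Members with all 3 ISRIB M0 libraries above the 3 vehicle libraries numbered 3, beside 5.26% of tested genes, and 4 had them below, beside 6.11%.

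The member nearest to passing was Nisch, which encodes the integrin- and Rac-binding protein nischarin, with 0, 0 and 0 counts in vehicle M0 and 6, 6 and 15 in ISRIB M0. In M1 it had 42, 20 and 39 counts with vehicle and 57, 43 and 23 with ISRIB, which overlapped. Its edgeR adjusted p in M0 was 0.0727 by Benjamini-Hochberg, and over the alternatives it ran from 0.00168 to 0.36. It passed with the DESeq2 Wald test (0.0159), without ISRIB M0 replicate 1 (0.0268) and without ISRIB M0 replicate 2 (0.0197), as well as with no filter on low counts. Apobr had 17, 26 and 24 counts in vehicle M0 and 8, 9 and 15 in ISRIB M0, a log2 fold change of -1.03 ± 0.31 (SE; edgeR adjusted p = 0.339, Benjamini-Hochberg), with no overlap. Kif1b, a kinesin of organelle transport, had 6, 4 and 0 against 0, 0 and 0. Trim43c had 7, 15 and 4 against 12, 22 and 21, a log2 fold change of 1.10 ± 0.39.

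For the interaction, the difference between M1 against M0 under ISRIB and in vehicle, 0 of 123 passed by edgeR with Benjamini-Hochberg adjustment, beside 0% of all tested genes, and 0 by DESeq2 or limma-voom. At an unadjusted p under 0.05 there were 22 by edgeR, beside 7.09% of all tested genes, 22 by DESeq2, beside 7.17%, and 6 by limma-voom, beside 6.15%. The interaction takes in the same sparse M0 counts, so nothing is read from these shares either. Nisch came first (edgeR, Benjamini-Hochberg adjusted p = 0.183), followed by Vti1a, Kif1b, Zfp276 and Fundc1. Of these Zfp276 was well counted in M0 too, with 19, 16 and 10 counts in vehicle and 12, 38 and 27 under ISRIB, and its interaction was -1.10 ± 0.36 on the log2 scale (SE).

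The median coefficient of variation between the 3 libraries was 39.6% in vehicle M1 and 30.7% in ISRIB M1. For the 20 best-counted members it was 13.5% and 12.1%. The widest was Rilpl2, a protein of ciliary membrane traffic, with 26, 6 and 1 counts in vehicle M1, and among the narrowest was Skiv2l2 with 259, 250 and 274.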

How the data were processed

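Per the labels, polyadenylated RNA was made into strand-specific TruSeq libraries and sequenced on a NovaSeq instrument. The authors deposited whole-number counts per gene symbol, which were used; a table of log2 values that the authors also deposited was not used. The submitters' processing notes name FastQC, HTSeq, DESeq2 and the mm10 build. The aligner, annotation and strand setting are not given in the sources used here. The members and lists were chosen with earlier results of these data known.

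Levels are counts divided by the library total, as CPM, for 24552 symbols. Counts were tested in R 4.3.3 with edgeR 4.0.16 (filterByExpr with minimum count 10 and minimum total 15, TMM, quasi-likelihood test, all 12 samples, a mean per group), and p-values were adjusted by Benjamini-Hochberg over 2356 genes with a threshold of 0.05. The common biological coefficient of variation was 0.275. On the TMM scale the log2 ratio of M1 to M0 is 0.30 higher than on library totals for every gene. limma 3.58.1 (voom) and DESeq2 1.42.0 were alternatives, with another scaling, other filters, the replicate block, other rule values and each sample left out. Scripts were tested on simulated data. A fold against M0 at 0 is a bound against 3 counts per library; none is given for 1 to 3 M0 counts. Opposite-strand overlap uses GENCODE vM21 exons (GRCm38), and promoters come from RefSeq. Named were the 20 members with the most M1 counts, the 5 with the lowest p per ISRIB contrast, members of the 6 lists, genes next to each threshold, the top 5 with no M0 count, and up to 4 tested list genes by level; members named beyond these, as examples of a role, were chosen after their values were seen. For 1 member the values are not reported here.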

Additional observations from a re-analysis of the deposited data

Results flagged for a closer look

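Vti1a, a SNARE protein of endosomal fusion, moved in opposite directions with ISRIB in the 2 states, with every library of a group on one side. In M0 it had 2, 4 and 2 counts with vehicle and 0, 0 and 0 with ISRIB, and in M1 it had 12, 13 and 9 with vehicle and 17, 20 and 31 with ISRIB. The difference between the effects was 5.21 on the log2 scale and did not pass (edgeR adjusted p = 0.309, Benjamini-Hochberg); with a group at 0 its size depends on the prior count. Fundc1, a mitophagy receptor, moved the other way round, with 0, 0 and 0 counts in vehicle M0, 4, 1 and 1 in ISRIB M0, 33, 22 and 24 in vehicle M1, with 19, 17 and 16 in ISRIB M1. Its difference was -4.64 on the log2 scale (edgeR adjusted p = 0.434, Benjamini-Hochberg), with the same limit.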

How the results depend on the processing

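In M1 the count of members called for ISRIB was 0 under all 20 alternatives. In M0 it was 1 (Nisch) with the DESeq2 Wald test and with no filter on low counts, and 0 to 1 when single libraries were left out; for the interaction it was 1 (Nisch) with no filter. The interaction compares all 4 groups, so a fit of the compared groups alone is the main fit. List genes that are not members and were called for M1 against M0 numbered 3 in vehicle and 2 under ISRIB with a minimum mean of 50 counts, 12 in vehicle with only the groups compared in the fit, and 29 under ISRIB with no filter, as fewer or more genes were tested. The rule gave 214 genes with M0 at most 1/4 of M1, 70 at 1/16, 231 with a minimum of 10 CPM and 56 with 50 CPM, and 121 to 142 with single libraries left out. TMM scaling gave 169 genes, DESeq2 size factors 173, and both held all 127. Vehicle libraries alone gave 149 genes, sharing 105, and ISRIB libraries alone 133, sharing 96. Opposite-strand overlap widened to genes within 5000 bases, a definition chosen after seeing the data, took in 87 members. With the replicate block 0 members were called in each ISRIB contrast. Same-numbered samples correlated by -0.06 to 0.113 in their deviations from the group means. At this depth counting noise can hide a shared preparation, so whether the numbers pair the samples cannot be told from these values. Depth limits the genes under 50 CPM.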
